A study of Mus musculus with 12 samples.

Results

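The genes described here encode the proteins of elastic fibres and of the microfibrils that surround them, 10 genes named as Eln, Fbn1, Fbn2, Mfap2, Mfap4, Mfap5, Fbln1, Fbln5, Efemp1 and Emilin1. Members were the probe sets of a mouse whole-genome array whose only gene symbol was one of these names, and they numbered 17 of the 45101 probe sets on the array, for 9 of the 10 genes, out of 18194 genes named on it; Fbn1 was not analysed here. The arrays compared side population (SP) cells, the cells of a dissociated tissue that exclude a DNA-binding dye, from 2 mouse muscles: extraocular muscle (EOM), which moves the eye, and tibialis anterior (TA), a muscle of the hind limb. Each muscle gave 6 independently separated preparations with 1 array each, and the arrays are called EOM or TA with the number in their titles. Both groups were labelled only by muscle, and strain, genotype, age, sex, treatment and the number of mice behind a preparation were not given in the sources used here. A signal is the MAS5 summary of a probe set, on a linear scale on which each array had the same trimmed mean; no count stands behind it, and the number of arrays limits the precision.

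Elastic fibres let a tissue stretch and recoil. Their core is elastin, secreted as soluble tropoelastin and cross-linked by lysyl oxidases on a scaffold of microfibrils built from fibrillins. Small glycoproteins attach to that scaffold, fibulins and EMILIN proteins connect core, scaffold and cells, and some latent TGF-beta binding proteins store the growth factor there. In skeletal muscle the fibres lie in the connective tissue around muscle bundles and in vessel walls, and fibroblasts and smooth muscle cells are known to make them.

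The change of Fbln5 differed by test from those of the other fibulin-family members, Fbln1 and Efemp1, so 1 stretch at the gene start of each is shown, from RefSeq on GRCm38.p6, on the strand of the gene. Promoter sequences matched 5 of the 9 genes. Each window holds 250 bases before and 50 after an annotated start, and capitals mark matches, on either strand, to GGGCGG (a GC box, read as CCGCCC on the other strand) or CACGTG (an E-box).
Fbln1, chr15:85205758-85206057, + strand: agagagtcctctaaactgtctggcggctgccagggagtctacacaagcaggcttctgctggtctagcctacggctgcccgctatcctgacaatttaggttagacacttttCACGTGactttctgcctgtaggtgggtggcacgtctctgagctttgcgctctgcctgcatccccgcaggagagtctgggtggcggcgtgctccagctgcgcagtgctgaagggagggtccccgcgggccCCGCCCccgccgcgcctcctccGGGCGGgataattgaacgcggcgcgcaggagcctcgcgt
Fbln5, chr12:101819070-101819369, - strand: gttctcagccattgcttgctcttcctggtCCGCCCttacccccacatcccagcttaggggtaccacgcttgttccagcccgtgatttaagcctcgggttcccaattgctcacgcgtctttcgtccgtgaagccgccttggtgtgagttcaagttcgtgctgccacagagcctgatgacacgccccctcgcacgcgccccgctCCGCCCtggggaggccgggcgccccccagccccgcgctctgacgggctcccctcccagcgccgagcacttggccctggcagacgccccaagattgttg
Efemp1, chr11:28852955-28853254, + strand: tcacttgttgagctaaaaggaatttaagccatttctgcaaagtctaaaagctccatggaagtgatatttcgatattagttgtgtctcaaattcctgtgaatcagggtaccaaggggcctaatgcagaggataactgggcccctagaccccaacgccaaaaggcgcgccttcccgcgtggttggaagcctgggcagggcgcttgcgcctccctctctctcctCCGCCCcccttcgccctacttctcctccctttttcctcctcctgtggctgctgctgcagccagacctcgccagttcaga
RefSeq gives Fbln1 and Fbln5 a second window each, not shown, in which GGGCGG occurred 0 times. In the windows shown it occurred 2 times for Fbln1, 2 times for Fbln5 and 1 time for Efemp1, and 35.7% of all 32851 windows of this length hold it. CACGTG occurred 1 time, in the Fbln1 window only among these 3, and 7.15% of all windows hold it. Neither TATAAA nor TGACTCA, the other motifs searched, was in these 3 windows; they were in 13.6% and 5.20% of all windows. These are matches of letters in a window and say nothing of binding.

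Overall signal set 3 arrays apart, with medians of 87.2 (EOM 1), 69.6 (TA 3) and 63.2 (TA 5), against 31.2 to 43.4 for the other 9. The 3' over 5' ratio of beta-actin signals, which grows with shortened RNA, reached 104 for EOM 1, 165 for TA 3 and 100.2 for TA 5, and ran from 8.92 to 28.5 on the other EOM arrays and from 5.27 to 68.6 on the other TA arrays. EOM 1 was the lowest EOM array for 7 of the 9 member genes, so values without it are given for the members, the pairs and the list counts. Abcg2, the transporter known for the dye-excluding property, had signals of 100.3 to 1014 on EOM arrays and 1705 to 3461 on TA arrays. The probe sets of Pax7 and Myf5, which define muscle satellite cells, fell below the level at which probe sets were tested.

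Of the 9 member genes 6 were higher in EOM and 0 were lower: Mfap4, Fbln1, Efemp1, Mfap5, Eln and Mfap2, with fold changes from 2.19 to 12.6. Fbln5, Emilin1 and Fbn2 did not pass the threshold, and at an unadjusted p under 0.05 limma also called 6 higher and 0 lower. The share of all genes at that unadjusted cut was not computed, and the shares that follow are for adjusted p. Among all 13067 genes tested, 4.05% were higher and 6.81% lower (limma on log2(signal + 16), Benjamini-Hochberg adjusted p under 0.05, two-sided), and the median log2 fold change, EOM minus TA, was 1.20 over the 9 genes and -0.04 over all genes. Without EOM 1 the count was also 6 higher and 0 lower, beside 10.0% and 10.5% of all genes. Each gene is given by the probe set of highest mean signal, with its other probe sets beside it. Of the 17 member probe sets, 15 passed the level filter, and 9 of these were higher in EOM and 0 lower, beside 3.20% and 5.03% (8.23% in either direction) of all 27022 probe sets tested. In 5 of the 15 every EOM array lay above every TA array, which held for 1.90% of all tested probe sets; in 0 of the 15 did every EOM array lie below every TA array, as in 3.53% of all. The arrays measure RNA of a mixed preparation, in which fewer cells of a type and less RNA per cell cannot be told apart.

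**Figure D1:**
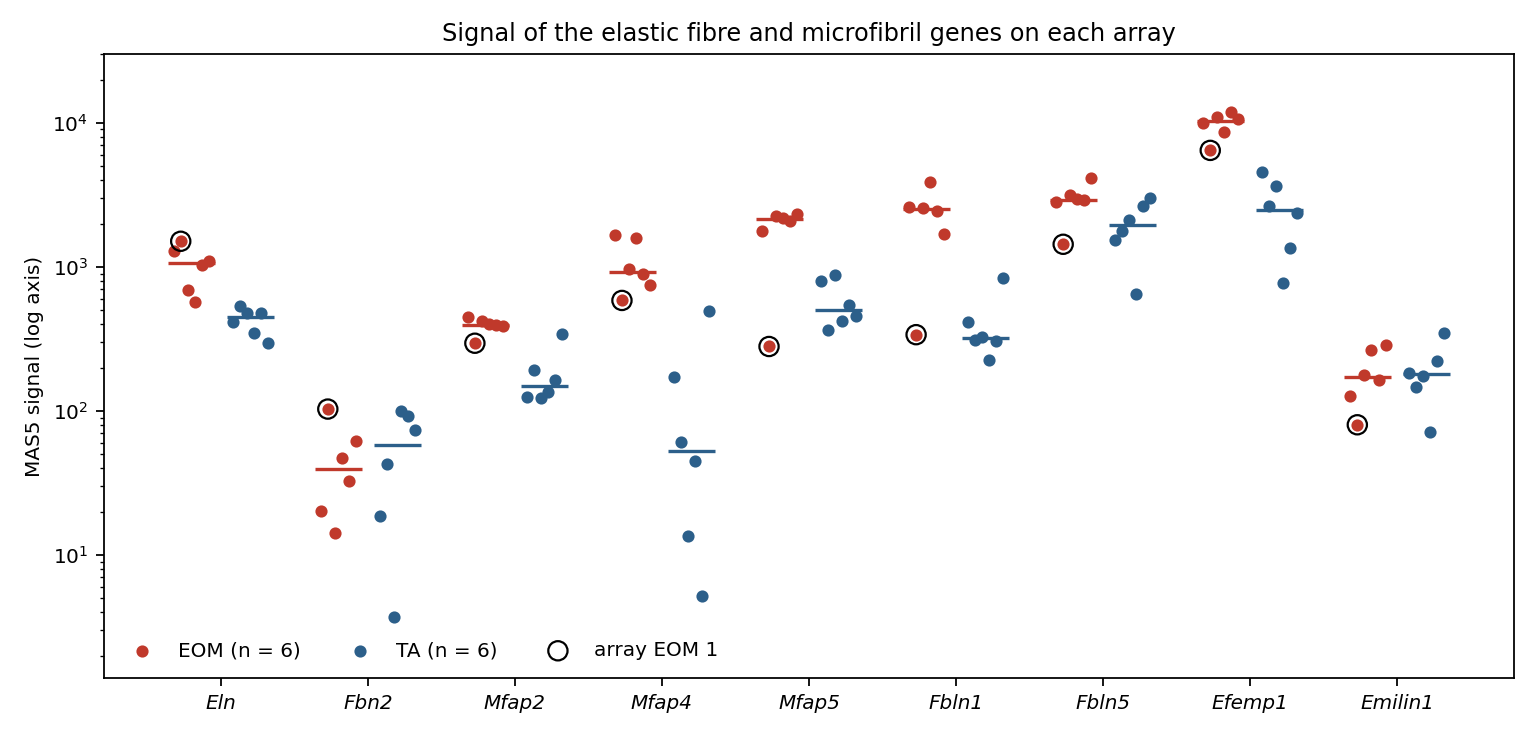
MAS5 signal (log axis) of the 9 genes on each of the 6 EOM and 6 TA arrays, for the probe set that represents each gene; points are arrays, lines group medians, and circles mark array EOM 1. Eln, Mfap4 and Efemp1 show no overlap between the groups, and EOM 1 lies apart from the other EOM arrays for Mfap5 and Fbln1.

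Elastin itself was higher in EOM. Eln, which encodes tropoelastin, had a lowest, median and highest signal of 574, 1069 and 1507 on EOM arrays, against 294, 447 and 538 on TA arrays (probe set 1420855_at). All 6 EOM arrays were above all 6 TA arrays, the lowest EOM array (EOM 3) lying just above the highest TA array (TA 1). The log2 fold change was 1.20 ± 0.27 (SE, adjusted p = 0.00808), or 2.29-fold, and 1.07 without EOM 1 (adjusted p = 0.00436). EOM 1 was the highest array for Eln, unlike for most other members. A second Eln probe set, 1420854_at, had low signals of 11.3 to 294 in EOM and 7.5 to 111 in TA, overlapped between the groups and did not pass (0.68 ± 0.57, SE, adjusted p = 0.599). With the mean of both probe sets in place of the brighter one, Eln was at 0.94 and missed the threshold (adjusted p = 0.129).

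Fibrillin 2, the fibrillin known mainly from developing tissue, was low on all arrays. Fbn2 had signals of 14.3, 39.9 and 103 (lowest, median and highest) on EOM arrays, against 3.7, 57.95 and 100.6 on TA arrays (1454830_at). The groups overlapped throughout, and the log2 fold change of -0.09 had a 95% interval from -1.07 to 0.89 (adjusted p = 0.961), wide enough to hold a change of either sign. Without EOM 1 it was at -0.31 (adjusted p = 0.701). Its other probe set, 1422831_at, was at -0.12 (adjusted p = 0.940). The sign of the Fbn2 estimate turned under several settings.

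The 3 microfibril-associated glycoproteins were all higher in EOM, by different amounts. Mfap4, a fibrinogen-related protein that binds elastin and integrins, had the largest change of the 9 genes. Its signals were 585, 928 and 1655 (lowest, median and highest) on EOM arrays, against 5.2, 52.7 and 498 on TA arrays (1424010_at). No EOM array overlapped a TA array. TA arrays differed widely among themselves: TA 6, at 498, and TA 0, at 172, were well above the other 4 TA arrays, which lay between 5.2 and 60.8. The log2 fold change was 3.65 ± 0.59 (SE, adjusted p = 0.000481), or 12.6-fold, and 3.80 without EOM 1 (adjusted p = 0.000148). Its size moved with the constant added before the log, to 4.24 with 1 and 2.87 with 64, since the TA signals are low.

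Mfap5, also called MAGP-2, is a small glycoprotein that binds fibrillin. On probe set 1449082_at it had signals of 280, 2145 and 2339 (lowest, median and highest) in EOM, against 366.5, 499 and 876 in TA. The other EOM arrays, at 1783 or more, were above every TA array, and EOM 1, at 280, was below every TA array. With all arrays the log2 fold change was 1.45 ± 0.44 (SE, adjusted p = 0.0482), and without EOM 1 it was 1.93 ± 0.24 (SE, adjusted p = 1.14e-05). That call passed in only 2 of the 12 fits that left out 1 array, those without EOM 1 and without TA 2. The second probe set, 1418454_at, had 528, 1500.45 and 1646 in EOM, against 195, 363 and 565 in TA, and it passed in 12 of the 12 fits. Its log2 fold change was 1.87 ± 0.33 (SE, adjusted p = 0.00123) with all arrays and 2.12 (adjusted p = 1.75e-05) without EOM 1.

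Mfap2, or MAGP-1, the paralogue of Mfap5, had signals of 295, 398 and 447 (lowest, median and highest) on EOM arrays, against 122, 150.0 and 340.1 on TA arrays (1417359_at). All EOM arrays but EOM 1 were above all TA arrays, and EOM 1 was below TA 6. The log2 fold change was 1.13 ± 0.26 (SE, adjusted p = 0.0101), or 2.19-fold, and 1.21 without EOM 1 (adjusted p = 0.00222). A second probe set, 1447833_x_at, was at 0.13 ± 0.41 (SE, adjusted p = 0.926). On it EOM 1 was the highest of all arrays, at 696, while the other 5 EOM arrays, at 82.8 to 207.5, overlapped the TA arrays, at 88.5 to 278. The mean of both probe sets was at 0.63 and missed the threshold (adjusted p = 0.117).

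Fbln1, fibulin 1, a calcium-binding glycoprotein of elastic fibres and basement membranes, was measured by 3 probe sets, and all 3 were higher in EOM. On 1439688_at the signals were 957, 2532 and 3315 (lowest, median and highest) in EOM, against 162, 219.8 and 301 in TA. The lowest EOM array was above the highest TA array, and the log2 fold change was 3.26 ± 0.29 (SE, adjusted p = 1.11e-06), or 9.56-fold. On 1422540_at they were 779, 1585 and 2142 in EOM, against 82.8, 121 and 222 in TA, with no overlap and a log2 fold change of 3.28 ± 0.31 (SE, adjusted p = 1.99e-06). The brightest probe set, 1451119_a_at, had 339, 2504 and 3860 in EOM, against 227, 319 and 835 in TA. Here EOM 1, at 339, lay among the TA arrays and TA 6, at 835, above the other TA arrays. Its log2 fold change was the smallest of the 3, at 2.26 ± 0.46 (SE, adjusted p = 0.00398), and it was 2.74 without EOM 1 (adjusted p = 1.99e-06).

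Efemp1, or fibulin 3, was at 6441, 10275 and 11914 (lowest, median and highest) in EOM, against 769, 2498 and 4558 in TA (1427183_at). The groups did not overlap. Within TA the arrays TA 3, at 769, and TA 5, at 1352, were the lowest, and within EOM the lowest was EOM 1. The log2 fold change was 2.13 ± 0.37 (SE, adjusted p = 0.000838), or 4.36-fold, 2.24 without EOM 1 (adjusted p = 0.000138), and 1.70 without EOM 1, TA 3 and TA 5 (adjusted p = 1.04e-05).

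Fbln5, fibulin 5, which mice need to assemble elastic fibres, had signals of 1436, 2923 and 4137 (lowest, median and highest) on EOM arrays, against 652, 1948 and 3018 on TA arrays (1416164_at). The groups overlapped, with 2 EOM arrays above every TA array. The log2 fold change was 0.65, with a 95% interval from -0.08 to 1.37, and did not pass (adjusted p = 0.326). Without EOM 1 it was 0.84 (adjusted p = 0.0703). Without EOM 1, TA 3 and TA 5 it was 0.63 and passed (adjusted p = 0.0419). The other probe set, 1446377_at, at 2.9 to 27.0 in EOM and 11.8 to 163 in TA, was below the level filter.

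Emilin1, a glycoprotein at the border of elastin and microfibrils, overlapped between the groups, at 80.2, 171 and 287 (lowest, median and highest) in EOM, against 71.3, 179.7 and 345 in TA (1416414_at). Its log2 fold change of -0.03 had a 95% interval from -0.77 to 0.70 (adjusted p = 0.981), and the sign of the estimate turned under median centring and without EOM 1 (0.16, adjusted p = 0.789). A second probe set, 1431834_a_at, at 6.3 to 67.9 in EOM and 6.0 to 30.8 in TA, was not tested for its low level.

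**Figure D2:**
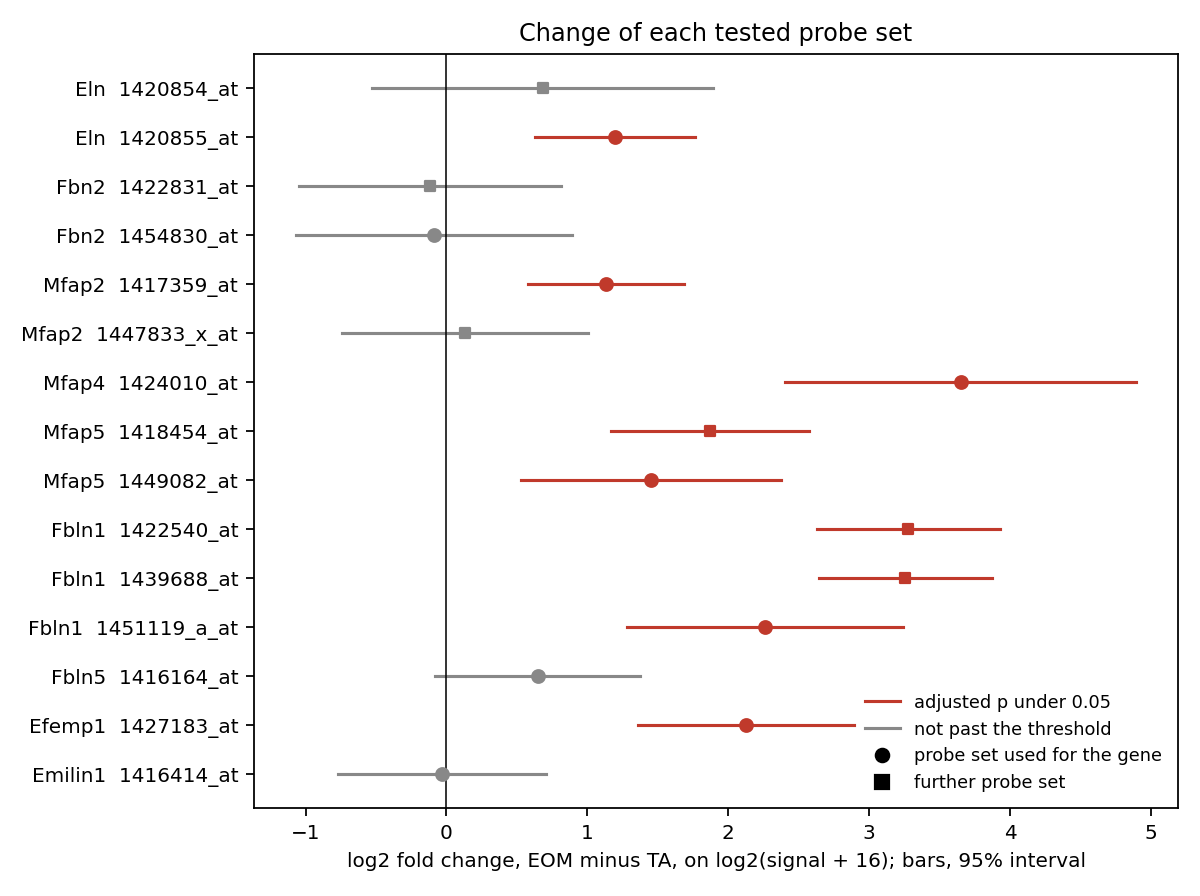
Log2 fold change (EOM minus TA, on log2(signal + 16)) of the 15 tested probe sets with 95% intervals, 6 EOM and 6 TA arrays; red, adjusted p under 0.05. All 3 Fbln1 and both Mfap5 probe sets lie above 0, while 1 of the 2 probe sets of Eln and of Mfap2 spans 0.

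Related genes were then set against each other within each array, to ask whether paralogues changed by the same amount. Of 6 pairs chosen, 4 could be computed, and the 2 with Fbn1 could not. Each array's difference of log2(signal + 16) between the genes was compared between the groups by an exact permutation test over all 924 assignments of 6 and 6, two-sided, adjusted over the 4 pairs by Benjamini-Hochberg. These values show unequal change of 2 probe sets and not which gene is the more abundant.

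The change was larger for Efemp1 than for Fbln5, which did not pass on its own. Fbln5 minus Efemp1 was -2.15, -1.81 and -1.35 (lowest, median and highest) on EOM arrays, against -1.57, -0.39 and 0.96 on TA arrays. The groups overlapped through TA 0, EOM 3 and EOM 6, and the EOM arrays lay closer together than the TA arrays. The difference between the groups was -1.48 (exact permutation p = 0.00649, adjusted p = 0.0260, n = 6 each), and -1.40 without EOM 1 (exact permutation, adjusted p = 0.0216).

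The change was also larger for Fbln1 than for Fbln5. Fbln1 minus Fbln5 was -2.03, -0.27 and 0.39 (lowest, median and highest) on EOM arrays, against -3.04, -2.16 and -1.46 on TA arrays. Only EOM 1, at -2.03, lay among the TA arrays. The difference was 1.61 (exact permutation p = 0.0130, adjusted p = 0.0260, n = 6 each), and 1.90 without EOM 1 (exact permutation, adjusted p = 0.00866).

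Fbln1 and Efemp1 showed no unequal change that passed, with the Fbln1 probe set of smallest change standing for the gene: the difference between the groups was 0.14 (exact permutation p = 0.816, adjusted p = 0.816, n = 6 each), with 5 EOM arrays between -2.64 and -1.16, EOM 1 at -4.19, and TA arrays between -3.42 and -1.48. It was 0.50 without EOM 1 (exact permutation, adjusted p = 0.303), 0.81 with the mean of the probe sets of each gene (adjusted p = 0.139) and 0.81 without EOM 1, TA 3 and TA 5 (adjusted p = 0.190), so its size is poorly fixed. For Mfap2 and Mfap5 the difference was -0.32 (exact permutation p = 0.571, adjusted p = 0.762, n = 6 each). The EOM arrays lay between -2.53 and -1.96 except EOM 1, at 0.07, against TA arrays between -2.69 and -0.40. Without EOM 1 the difference for this pair was -0.72 (exact permutation, adjusted p = 0.153), and with the mean of the probe sets it was -1.03 (exact permutation, adjusted p = 0.139).

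**Figure D3:**
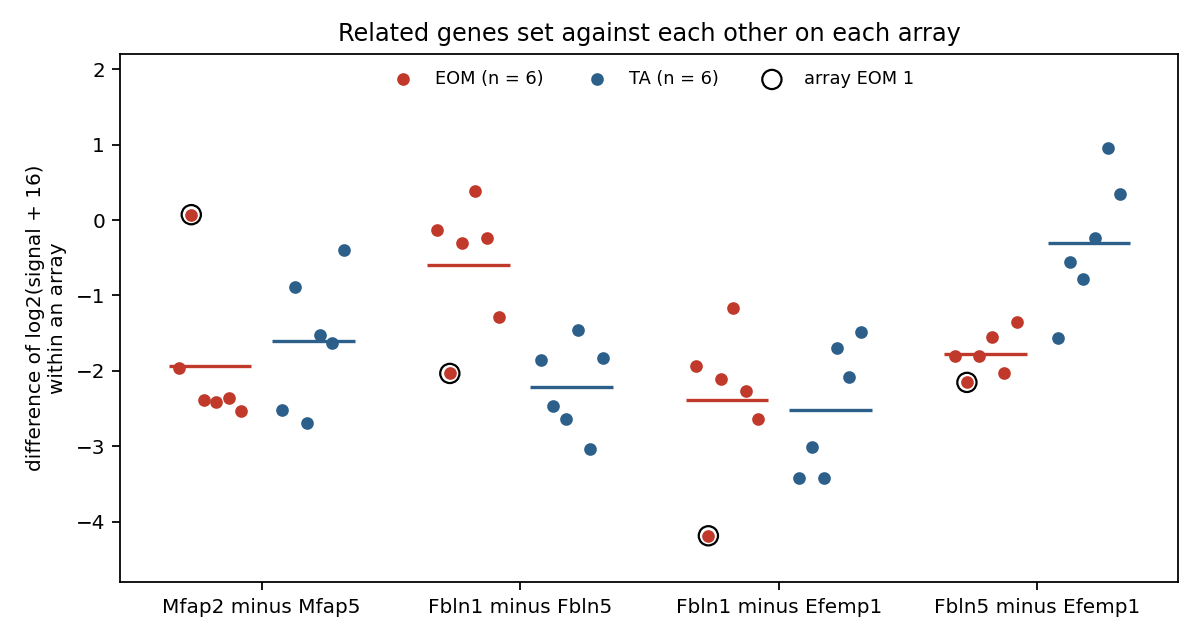
Difference of log2(signal + 16) between 2 related genes within each array, for 4 pairs, on 6 EOM and 6 TA arrays; lines are group means and circles mark EOM 1. Fbln1 minus Fbln5 lies higher in EOM and Fbln5 minus Efemp1 lower in EOM, each with some overlap; the other 2 pairs overlap more widely.

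Genes that act with these proteins were counted in 5 further lists, chosen by function. List counts at an adjusted p under 0.05, also those of the cell types further on, stand beside 4.05% of all tested genes higher and 6.81% lower. Without EOM 1 these shares were 10.0% and 10.5%, so counts of any list can rise without that array. Latent TGF-beta binding proteins, fibrillin relatives of which some hold latent TGF-beta in the matrix, were higher in EOM for Ltbp1, Ltbp2 and Ltbp3. Among 8 tested genes of the list named latent TGF-beta complex 4 were higher and 0 lower, and 5 and 0 without EOM 1. With all arrays the median log2 fold change was 1.27, beside -0.04 over all genes. Ltbp1 was at 612 to 1254 on EOM arrays, against 147 to 341 on TA arrays, without overlap (2.05 ± 0.26, SE, adjusted p = 3.74e-05), and all 3 of its probe sets passed. Ltbp2 rose by 1.58 ± 0.35 (SE, adjusted p = 0.00710). Ltbp3 was at 1.29 ± 0.33 (SE, adjusted p = 0.0193), with 10983 to 45243 (median 12452) in EOM, against 5010 to 8833 in TA. It was at 0.99 without EOM 1 (adjusted p = 0.00250), and with all arrays 2 of its 3 tested probe sets passed. Ltbp4 was at 1.25 ± 0.40 (SE) and missed the threshold with all arrays (adjusted p = 0.0648), but not without EOM 1 (1.52, adjusted p = 0.00439). Tgfb2, a TGF-beta ligand, was at 1.44 ± 0.31 (SE, adjusted p = 0.00607) on its brightest probe set, and 2 of its 4 tested probe sets passed. Without EOM 1 a different Tgfb2 probe set was the brightest, and it did not pass (0.94, adjusted p = 0.0793). These 2 values therefore do not show how the first probe set depends on EOM 1.

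Of 4 lysyl oxidase genes tested, which cross-link elastin and collagen, 1 was higher and 0 were lower, also without EOM 1 (median log2 fold change 0.40 with all arrays). Loxl1, the lysyl oxidase tied to elastic fibre upkeep in mice, had signals of 938 to 2705 on EOM arrays, against 236.5 to 1049 on TA arrays (1.63 ± 0.35, SE, adjusted p = 0.00511), and both of its probe sets passed. Lox was at 0.49 ± 0.45 (SE, adjusted p = 0.648) on its brightest probe set, with 310.2 to 2797 in EOM, against 509.5 to 2047 in TA, while its other tested probe set was called at 1.81. Without EOM 1 the brightest one was at 0.92 (adjusted p = 0.0550).

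Among 24 further microfibril and elastic fibre genes tested, 6 were higher and 2 lower in EOM (median 0.19), and 9 were higher and 2 lower without EOM 1. The counts of lower genes are near the shares over all genes. Emilin2, a relative of Emilin1, was at 1083 to 2445 on EOM arrays, against 189.5 to 748 on TA arrays (1.93 ± 0.32, SE, adjusted p = 0.000653). Adamtsl4, a fibrillin-binding protein known in people from displaced eye lenses, was at 630.3 to 847 in EOM, against 165 to 306 in TA (1.61 ± 0.22, SE, adjusted p = 8.66e-05). Adamtsl1 rose by 1.80 ± 0.27 (SE, adjusted p = 0.000262) on its brightest probe set, and 2 of its 3 tested probe sets passed. Mmrn2, an EMILIN-family gene of endothelial cells, was lower, at 334 to 1846 in EOM, against 5647 to 15803 in TA (-3.70 ± 0.39, SE, adjusted p = 7.07e-06). Fbln2, fibulin 2, was at -0.09 ± 0.47 (SE, adjusted p = 0.961), and Efemp2 was not analysed here.

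Of 14 tested proteases that can cut elastin or fibrillin or process matrix precursors, 3 were higher and 1 lower (median 0.55). Mmp3, or stromelysin 1, was at 2.18 ± 0.50 (SE, adjusted p = 0.00844), the serine protease Htra1 at 1.57 ± 0.26 (SE, adjusted p = 0.000635), and Bmp1, which activates lysyl oxidase, at 1.16 ± 0.31 (SE, adjusted p = 0.0245). Ctss, an elastin-degrading cathepsin of macrophages, was lower, at 3.0 to 205 in EOM, against 368 to 1980 in TA (-3.47 ± 0.50, SE, adjusted p = 0.000155). Without EOM 1 this list had 7 higher and 2 lower of 15 tested. Of 10 integrin chains for these ligands 0 were higher and 1 was lower, Itga8, at 43.5 to 105 in EOM, against 202 to 1011 in TA (-2.53 ± 0.36, SE, adjusted p = 0.000130). At an unadjusted p under 0.05, 3 integrin chains were higher and 2 lower, and the share of all genes at that cut was not computed. Without EOM 1 the counts were 1 higher, Itgb3 (1.01, adjusted p = 0.0434), and 2 lower, Itga8 and Itga4 (-1.63, adjusted p = 0.0109). Itgb3 and Itga4 were named after their values were seen. In a list of 10 the integrin counts by adjusted p are near the shares over all genes.

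**Figure D4:**
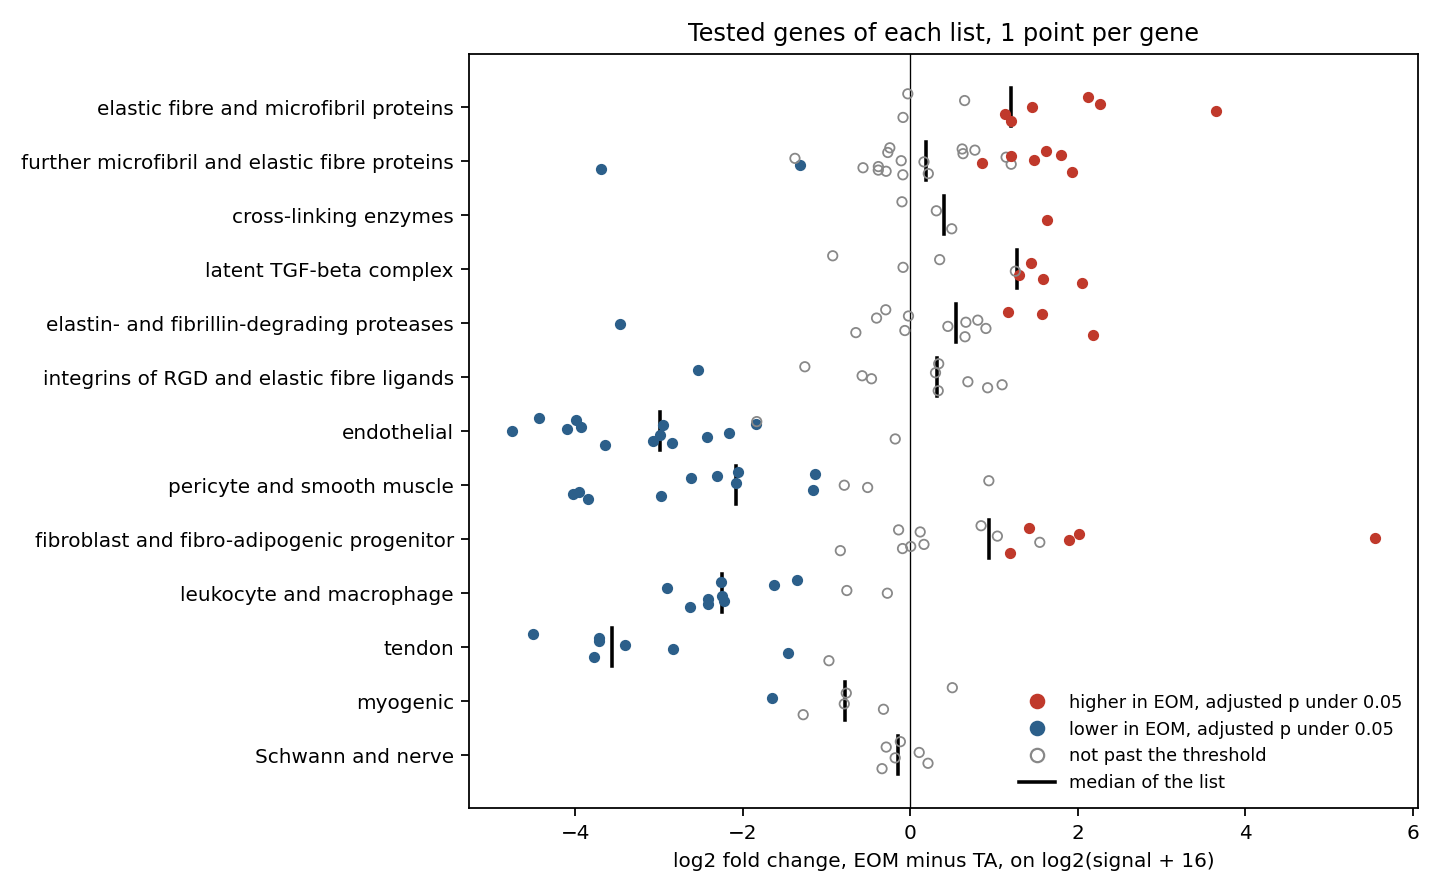
Log2 fold change (EOM minus TA) of each tested gene in the member list, 5 pathway lists and 7 cell type lists; 1 point per gene, filled where adjusted p was under 0.05, black bars for list medians. The members (median 1.20) and the latent TGF-beta complex (1.27) lie right of 0, the endothelial (-2.99), pericyte and smooth muscle (-2.09) and tendon lists (-3.56) left of it.

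Markers of several cell types that a side population can hold also differed between the groups, in either direction. Their part in the results above was not tested. Among 14 tested fibroblast and fibro-adipogenic progenitor markers 5 were higher and 0 lower (median 0.94), or 8 and 0 without EOM 1, and their summed signal was 152340 to 343303 on EOM arrays, against 104164 to 228423 on TA arrays. Much of that sum was Gsn, which was not called, at 27223 to 154812 in EOM, against 27514 to 111731 in TA. The largest called changes of this list were in Pi16 (5.55) and Cd248 (2.02), as log2 fold changes. The 9 markers not called, named after their values were seen, included Col1a1 (-0.84), Gsn (-0.14) and Col1a2 (-0.09). The others of these 9 were Col3a1 (0.003), Pcolce (0.12), Dcn (0.16), Dpp4 (0.84), Cd34 (1.04) and Lum (1.54). For Col1a2, 1 of 3 probe sets was called lower. Of 13 pericyte and smooth muscle markers 10 were lower and 0 higher (median -2.09), with sums of 6563 to 11172 in EOM, against 21976 to 39550 in TA. Myh11 (-4.03) and Rgs5 (-3.96) led those that were lower. The 3 not called, named after their values were seen, were Des (-0.79), Pdgfrb (-0.51) and Abcc9 (0.94). All 3 probe sets of Abcc9 were above 0, from 0.44 to 1.87, and 1 of them was called higher. Of 15 endothelial markers 13 were lower (median -2.99; 2311 to 3889 in EOM, against 16424 to 39847 in TA), led by Egfl7 (-4.75) and Gpihbp1 (-4.44). Tendon markers were lower in 7 of 8 (median -3.56; 2776 to 13831 in EOM, against 34741 to 117148 in TA), with Chad (-4.50) and Tnmd (-3.78) first. Of 11 leukocyte and macrophage markers 9 were lower (median -2.24; 542 to 4405 in EOM, against 4628 to 12418 in TA), with Tyrobp (-2.90) and Ptprc (-2.63) first. Of 6 myogenic markers tested 1 was lower, Acta1 (-1.66), with sums of 93.4 to 705 in EOM, against 287 to 1131 in TA. Schwann and nerve markers gave 0 calls of 6 with limma, and also 0 at an unadjusted p under 0.05 (711 to 16065 in EOM, against 1398 to 3355 in TA). Most of the highest of these sums was Mbp, which reached 15306 in EOM. Without EOM 1 the tendon list had 8 lower and the myogenic list 2, and the endothelial, pericyte, leukocyte and Schwann counts were the same. No tested marker of these lists was listed at 0 on any array.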

How the data were processed

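RNA of 12 side population preparations, 6 from extraocular and 6 from tibialis anterior muscle, was amplified in 2 rounds, biotin-labelled and hybridized to 1 array each, per the labels' protocols. The deposited values are signal intensities that the authors made with MAS5, per the labels; their mean, trimmed by 2% at each end, was 150.001 in every column, so each array had been scaled as a whole. Detection calls were not used here. Of 45101 probe sets 64 were controls, and 34958 had 1 gene symbol in the platform annotation. No 2 columns were identical and 0 columns were unused. Signals were taken as log2(signal + 16), which understates changes of low signals, controls and the dimmest 40% of probe sets by mean over the arrays were left out, and 27022 were tested with limma 3.58.1 in R 4.3.3 (intensity trend, two-sided, Benjamini-Hochberg, threshold 0.05). All adjusted p-values are from limma except those of gene pairs, which come from exact permutation tests run in Python 3.11.15. The fit was tested on simulated data. Groups and numbers come from the sample titles. The members, lists and alternatives were chosen with earlier results of these data known, so no p was adjusted over the members alone. Named genes were every member, up to 4 called genes with the largest change per pathway list and up to 2 per cell type list, and Lox, Loxl1, Ltbp1 to Ltbp4, Efemp2 and Fbln2 whatever their result. Promoter windows are those of RefSeq on GRCm38.p6, used for sequence only, and the motifs searched were narrowed after a first scan.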

Additional observations from a re-analysis of the deposited data

Results flagged for a closer look

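In 6 probe sets of members, 1 EOM array lay far below the other 5 EOM arrays, by Dixon's test on log2(signal + 16), and in all 6 it was EOM 1. The signals on EOM 1 were 295.3 for Mfap2 (1417359_at, next lowest 390.3), 527.9 and 280.3 for Mfap5 (1418454_at, next 1278, and 1449082_at, next 1783), 957 and 338.6 for Fbln1 (1439688_at, next 2254, and 1451119_a_at, next 1682) and 1436 for Fbln5 (1416164_at, next 2842). With 30 groups examined, chance flags about 1 in 20. EOM 1 also had the highest median signal of the 12 arrays, at 87.2. Without it the log2 fold changes were 1.21 for Mfap2, 1.93 for Mfap5, 2.74 for Fbln1 and 0.84 for Fbln5. Each is larger than with all arrays, as it must be when the lowest EOM array is left out. Without EOM 1, TA 3 and TA 5 they were 1.13 for Mfap2, 1.83 for Mfap5, 2.51 for Fbln1 and 0.63 for Fbln5. No TA array stood apart by Dixon's test.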

How the results depend on the processing

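With 1 array left out at a time, 8 to 9 member probe sets and 5 to 6 member genes were higher in EOM and 0 lower, while 1580 to 4386 of all probe sets passed, against 2225 with all arrays and 4386 without EOM 1. Eln (1.07 to 1.35), Mfap2 (1.05 to 1.32), Mfap4 (3.26 to 4.18), Fbln1 (2.05 to 2.74) and Efemp1 (1.83 to 2.34) passed in all 12 of these fits. Mfap5 ranged from 1.33 to 1.93 and lost its call in 10 of them (adjusted p up to 0.116). It also missed the threshold with a constant of 1 (1.47, adjusted p = 0.0588), quantile normalization (1.37, 0.0591), median centring (1.54, 0.191), no filter (1.45, 0.0557), no intensity trend (1.45, 0.0685) and the 3' to 5' actin ratio as a covariate (1.25, 0.0501). Median centring ended the call of Mfap2 (1.22, adjusted p = 0.0880), and averaging the probe sets of a gene ended those of Mfap2 (0.63) and Eln (0.94), each of which has a second probe set with a smaller change, so that 4 member genes were higher under each of these 2 settings. Fbln5 passed with array weights (0.76, adjusted p = 0.0112) and without EOM 1, TA 3 and TA 5 (0.63, 0.0419), and ranged from 0.36 to 0.84 with 1 array left out.

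The sign of 2 uncalled genes turned. Fbn2 was at 0.045 with a constant of 1, 0.0049 with median centring, 0.069 with the actin ratio, 0.15 without the 3 arrays and -0.41 to 0.10 with 1 array left out. Emilin1 was at 0.062 with median centring, 0.085 with array weights and -0.26 to 0.16 with 1 array left out. Over all probe sets 1445 passed with median centring, 5488 with array weights and 4709 without the 3 arrays. The difference of Fbln1 and Efemp1 ran from -0.11 to 0.50 with 1 array left out and reached 0.81 with averaged probe sets and without the 3 arrays, those of Fbln1 and Fbln5 from 1.42 to 1.90, of Fbln5 and Efemp1 from -1.73 to -1.22, and of Mfap2 and Mfap5 from -0.72 to -0.079. Same-numbered arrays did not deviate together (correlations from -0.32 to 0.16), so the numbers were not taken as pairs. With the number as a replicate block the member counts were the same, 6 genes higher and 0 lower, but the fibulin pairs missed the threshold: Fbln1 minus Fbln5 stayed at 1.61 and Fbln5 minus Efemp1 at -1.48, each with an adjusted p of 0.0625 from exact sign changes within numbers, where both pairs had the smallest p that 6 numbers allow. The cause of each of these changes was not tested. Low signals limit Fbn2 and the second probe sets of Eln, Fbln5 and Emilin1.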
